A study of Mus musculus with 30 samples.

Results

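The set described here holds 10 nuclear genes, the assembly factors Uqcc1, Uqcc2, Uqcc3 and Bcs1l of respiratory complex III and Surf1, Coa3, Sco1, Sco2, Cox10 and Cox15 of complex IV. They were chosen by name, as factors that build these complexes, from the 49585 rows of a table of transcript levels in mouse embryos at the 8-cell stage, and all 10 have a row. The choice was made with results of this same comparison known, among them a low Uqcc2 after Yy1 knockdown. Their differences between the groups are therefore descriptions, given without a test.

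The table holds 4 of the series' 30 samples, which are RNA libraries, and the other 26 samples were not analysed here. The embryos came from BDF1 x BDF1 crosses and were grown in KSOM, a medium for preimplantation embryos. One group of 2 libraries had a control knockdown and the other group of 2 had a knockdown of Yy1 with the siRNA numbered 1. No other genetic change is named for either group, and the labels do not give the number of embryos in a library or say whether replicates were collected separately. YY1 is a zinc finger transcription factor that binds many promoters close to the transcription start, and the comparison asks how transcripts of the 8-cell embryo differ without it.

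Complex III, the cytochrome bc1 complex, passes electrons from ubiquinol to cytochrome c, and complex IV, cytochrome c oxidase, passes them on to oxygen. Both join subunits encoded in the mitochondrial DNA to many made from nuclear genes, and both need metal centres that have to be put in place during assembly. Assembly factors are not part of the finished enzyme: they stabilise newly made core subunits, prepare heme and copper, and insert them. Preimplantation mouse embryos rely on mitochondrial respiration well before they implant.

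Levels are in FPKM, fragments scaled to the length of the gene and the depth of the library, so they can be compared between genes. The libraries held 29302489 to 34429515 fragments, and since reads copied by PCR are not separate molecules, depth bears on counting error alone. Yy1 stood at 77.7 and 71.2 FPKM in the 2 controls, against 5.89 and 7.98 FPKM with Yy1 knocked down. All 10 markers listed for the 8-cell embryo were above the filter of 1 FPKM, 8 lower and 2 higher after knockdown by group means. They summed to 2623 to 2791 FPKM per library, most of it Dppa3 at 1985 to 2128 FPKM. Of the 10 markers Zfp42, a gene of pluripotent cells, was at 30.7 and 30.2 FPKM in control and 5.43 and 3.99 FPKM with Yy1 knocked down (limma adjusted p = 0.0928). Zfp42 was called with protein-coding genes alone, with limma-voom and with a filter of 5 FPKM. Of the 12 cumulus and granulosa markers 4 were listed at 0 in every library and Amhr2 alone passed the filter. Amhr2 was at 5.35 and 4.74 FPKM in control and at 7.8 and 7.3 FPKM in Yy1 knockdown libraries. The whole list summed to 5.46 and 5.06 FPKM in control and to 7.9 and 7.96 FPKM after knockdown. Most of each sum is thus Amhr2, and the part of this list in the results below was not tested. The 8 sperm markers summed to at most 1.49 FPKM and the 7 blood markers to at most 1.75 FPKM. In libraries of whole embryos, fewer cells and less RNA per cell cannot be told apart.

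The promoters of the members are shown first because the 2 members with the largest differences share letters in them. Members and motifs were chosen with results of this comparison known. Nothing is therefore read from the shares of members with a match, which are given as a description. RefSeq lists 1 promoter window for each of the 10 genes in GRCm38.p6, from 250 bases before to 50 after the start, and 3 of the 10 hold AANATGGC on either strand, the core of the motif known for YY1 (N is any base), against 6.05% of 32851 windows of the same length. These are Uqcc2, Coa3 and Cox10, and in all 3 the match lies after the start on the strand of the gene, its first base at position 12, 19 and 22 from the start. Such a match after the start on the gene's strand is in 1.38% of all windows. Among the 6863 genes with a window that passed the filter of 1 FPKM, both shares were higher, 11.6% with any match and 4.46% with one after the start. The 30 bases around each match follow, with the match in capitals.
Uqcc2, chr17:27133862-27133891, minus strand: aagcggggcccAAGATGGCcgctctccgct
Coa3, chr11:101278912-101278941, minus strand: ggcggagcagcAACATGGCggcccctggag
Cox10, chr11:64079433-64079462, minus strand: ggcgggctagcAAGATGGCggcgcccagga

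The longer stretch before the start is given for Uqcc2 and Coa3, the members with the largest difference, as 250 bases before and 30 after the start with the same match in capitals near the end.
Uqcc2, chr17:27133862-27134141, minus strand: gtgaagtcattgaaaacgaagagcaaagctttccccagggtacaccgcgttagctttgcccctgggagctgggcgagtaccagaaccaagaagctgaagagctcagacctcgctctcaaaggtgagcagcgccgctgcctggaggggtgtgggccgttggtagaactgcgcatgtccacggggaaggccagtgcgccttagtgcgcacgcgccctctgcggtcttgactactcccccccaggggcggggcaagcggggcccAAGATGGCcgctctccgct
Coa3, chr11:101278919-101279198, minus strand: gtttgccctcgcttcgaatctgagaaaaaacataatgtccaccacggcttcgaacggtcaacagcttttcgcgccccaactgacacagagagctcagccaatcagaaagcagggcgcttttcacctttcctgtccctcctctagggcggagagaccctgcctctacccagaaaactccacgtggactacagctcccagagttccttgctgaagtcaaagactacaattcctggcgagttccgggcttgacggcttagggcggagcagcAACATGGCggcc
Another motif, CCGGAAG, which factors of the ETS family such as GABP bind, was searched on both strands. It stood in the windows of Bcs1l, Surf1, Sco1, Cox10 and Cox15, 5 of 10, against 8.86% of all windows and 23.4% of the 6863 genes. The motif of NRF1, another regulator of respiratory genes, searched on both strands as GCATGCGC, was in none of the 10 windows in 2.71% of all and in 6.79% of the 6863 genes. No matches of different motifs overlapped in these windows. A match is a description of the sequence and does not show that a factor binds there. The lack of an exact match likewise does not show that a factor does not bind.

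In control embryos the 10 genes covered a wide range of levels. Uqcc3 was highest at a mean of 37.7 FPKM, followed by Uqcc2 (14.3), Uqcc1 (11.9), Cox10 (11.4), Surf1 (8.41), Coa3 (6.37), Sco1 (4.7), Bcs1l (2.64) and Cox15 (2.53), with Sco2 listed at 0. Their median control level, with Sco2 at 0, was 7.39 FPKM. That is below the 25.5 FPKM of the 9 complex III subunits and the 15.7 FPKM of the 16 nuclear complex IV subunits in the table. It is above the 2.64 FPKM of 31 other assembly factors of complexes III and IV. Among genes that passed the filter of 1 FPKM these medians, in the same order, were 8.41, 25.5, 24.8 and 3.74 FPKM. Neighbours in this order whose 2 control libraries overlapped, and so do not differ beyond their spread, were Uqcc2 and Uqcc1, Uqcc1 and Cox10, Surf1 and Coa3, Coa3 and Sco1, and Bcs1l and Cox15. The remaining neighbours were apart in the control libraries, with Uqcc3 2.64 times as high as Uqcc2.

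**Figure D1:**
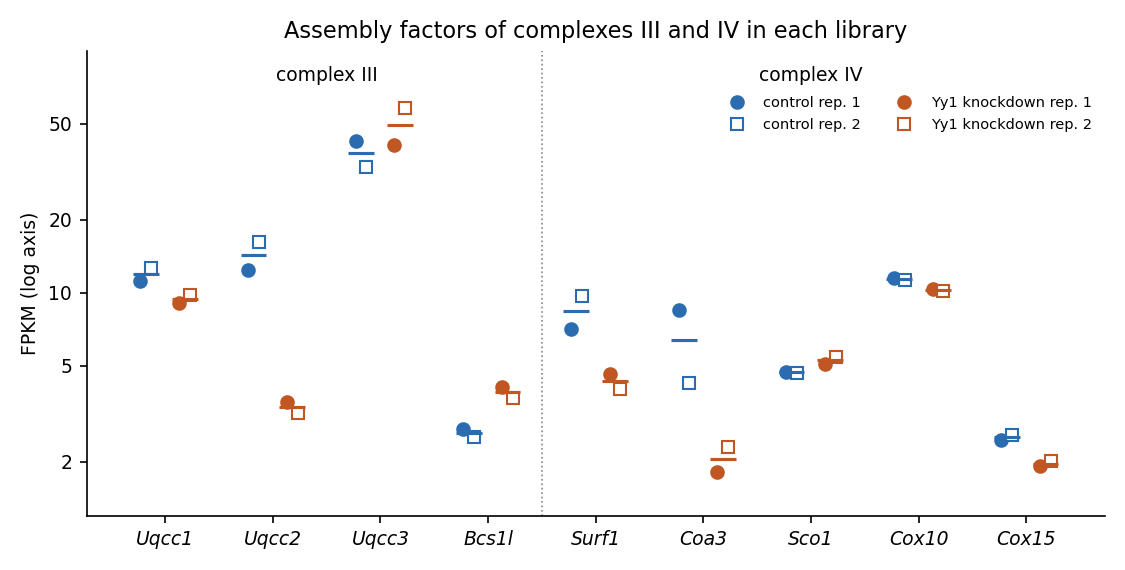
Level of each assembly factor in each of the 4 libraries, in FPKM on a log axis; circles are replicate 1, open squares replicate 2, and lines group means. Uqcc2 is at 12.4 and 16.2 FPKM in control and 3.54 and 3.18 FPKM in Yy1 knockdown libraries; Sco2, listed at 0, is not drawn.

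Complex III assembly starts from cytochrome b, which the mitochondrial DNA encodes. Uqcc1 and Uqcc2 encode partner proteins that bind it as it is made. Uqcc2, on chromosome 17 from 27122665 to 27133891, in RefSeq's GRCm38.p6 (the build of all gene positions here), was at 12.4 and 16.2 FPKM in the 2 controls, against 3.54 and 3.18 FPKM with Yy1 knocked down. These values came from 358 and 425 fragments in control and from 101 and 78 after knockdown. Both knockdown libraries were far below both controls, with means of 14.3 ± 2.65 and 3.36 ± 0.255 FPKM (SD, n = 2 each), 4.25-fold lower. The log2 fold change, taken on log2(FPKM + 1) here and throughout, was -1.80 with a standard error of 0.20, which ranked 22 from the lowest among the 12120 genes tested. That scale understates the change of low genes. Its neighbour Itpr3, 442 bases away, was at 5.51 and 6.82 FPKM in control and at 6.04 and 5.26 FPKM after knockdown, with overlapping groups.

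Its partner Uqcc1, on chromosome 2 from 155846886 to 155930310, was at 11.2 and 12.6 FPKM in control and 9.06 and 9.75 FPKM in Yy1 knockdown libraries. The groups did not overlap, but the difference was small, 1.27-fold lower, with a log2 fold change of -0.31 and a standard error of 0.17. The ratio of the Uqcc2 level to the Uqcc1 level was 1.11 and 1.28 in control and 0.391 and 0.326 in Yy1 knockdown libraries. Transcripts of the partners thus stood at near equal levels in control embryos and not after knockdown.

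Uqcc3 encodes a small inner membrane protein that acts on cytochrome b after UQCC1 and UQCC2. On chromosome 19 from 8880014 to 8880933, it was at 42.4 and 33.1 FPKM in control and 40.7 and 57.8 FPKM in Yy1 knockdown libraries. The groups overlapped, and the log2 fold change of 0.36 (standard error 0.22) was 0.12 without Yy1 knockdown replicate 2 and 0.19 without control knockdown replicate 2. It was 0.61 without Yy1 knockdown replicate 1.

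Bcs1l encodes the AAA-type ATPase that carries the Rieske iron-sulfur protein across the inner membrane, the last step that makes complex III active. On chromosome 1 from 74588289 to 74592443, it was at 2.74 and 2.54 FPKM in control and 4.1 and 3.67 FPKM in Yy1 knockdown libraries, from 175 to 306 fragments. Both knockdown libraries were above both controls, 1.47-fold higher by the means, with a log2 fold change of 0.42 and a standard error of 0.21. Zfp142, 156 bases away, was at 4.65 and 4.36 FPKM in control and at 6.39 and 5.7 FPKM after knockdown, with both knockdown libraries above both controls as for Bcs1l. The Rieske protein's own transcript, Uqcrfs1, was at 42.1 and 30.6 FPKM in control and at 40.6 and 47.6 FPKM after knockdown, with overlapping groups.

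The complex IV factors begin with those that handle the core subunit COX1. Coa3 encodes a membrane protein that holds newly made COX1 in an early assembly intermediate. On chromosome 11 from 101277970 to 101278948, Coa3 was at 8.49 and 4.24 FPKM in control and 1.82 and 2.31 FPKM in Yy1 knockdown libraries, from 259 and 118 against 55 and 60 fragments. Control replicate 1 was the high library of the 4. The groups did not overlap, with means of 6.37 ± 3 and 2.07 ± 0.346 FPKM (SD, n = 2 each), 3.08-fold lower. The log2 fold change of -1.21 (standard error 0.33) was -0.78 without control knockdown replicate 1 and -1.63 without control knockdown replicate 2. The neighbours Cntd1 and Wnk4, 255 and 561 bases away, were at 0 to 0.0617 and at 0.132 to 0.406 FPKM.

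Surf1, whose product helps to insert heme a into COX1 and whose loss in people causes Leigh syndrome, lies on chromosome 2 from 26913378 to 26916610. It was at 7.09 and 9.74 FPKM in control and 4.6 and 4.01 FPKM in Yy1 knockdown libraries, from 428 and 536 against 275 and 206 fragments. Both knockdown libraries were below both controls, 1.95-fold lower, with a log2 fold change of -0.81 and a standard error of 0.22. Surf1 overlaps Surf2 by 239 bases and lies 66 bases from Rpl7a. Surf2 was at 17.0 and 16.4 FPKM in control and at 12.8 and 11.9 FPKM after knockdown, while Rpl7a was at 119 and 142 against 125 and 141 FPKM. The strand setting of the authors' counting was not stated in what could be read here, so fragments in the overlap of Surf1 and Surf2 cannot be told apart.

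Cox10 and Cox15 make heme a, first by turning heme b into heme o and then heme o into heme a. Cox10, on chromosome 11 from 63962627 to 64079472, was at 11.5 and 11.2 FPKM in control and 10.4 and 10.1 FPKM in Yy1 knockdown libraries. Cox15, on chromosome 19 from 43733254 to 43753000, was at 2.47 and 2.59 FPKM in control and at 1.93 and 2.02 FPKM after knockdown. In both genes the replicates lay close together and the groups did not overlap, yet the differences were small, 1.11-fold and 1.28-fold lower. The log2 fold changes were -0.13 (standard error 0.16) and -0.25 (0.22). The level of Cox15 relative to Cox10 was 0.215 and 0.23 in control and 0.185 and 0.199 in Yy1 knockdown libraries. Of the 3 members with the YY1-type match, Cox10 had the smallest difference. Cox10 contains or borders 4 noncoding RNA genes, of which 2810001G20Rik, 12 bases away, was at 0.824 and 1.18 against 2.25 and 1.42 FPKM. Cox15 overlaps Entpd7 by 600 bases and lies 23 bases from Cutc. Entpd7 was at 1.44 and 1.28 against 1.57 and 1.48 FPKM, and Cutc at 1.98 and 3.16 against 4.02 and 3.41 FPKM. In both, the knockdown libraries were above both controls, as in 21.8% of all genes tested, where those of Cox15 were below. The log2 fold changes were 0.10 (standard error 0.25) for Entpd7 and 0.42 (0.26) for Cutc.

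Sco1 and Sco2 encode related copper chaperones that load the copper centre of COX2. Sco1, on chromosome 11 from 67052600 to 67067444, was at 4.72 and 4.67 FPKM in control and 5.07 and 5.44 FPKM in Yy1 knockdown libraries, from 576 to 678 fragments. Its knockdown libraries were above both controls, but by 1.12-fold, with a log2 fold change of 0.13 and a standard error of 0.18. Adprm, which it overlaps by 32 bases, was at 0 to 0.0735 FPKM.

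Sco2, on chromosome 15 from 89371630 to 89373891, was listed at 0 in all 4 libraries. In RefSeq 2261 of its 2262 bases lie within the span of Tymp and 1221 within that of Ncaph2. Tymp was at 0.0285 and 0.375 FPKM in control and at 0.317 and 0.469 FPKM after knockdown, and Ncaph2 at 15.7 and 16.3 against 22.1 and 22.9 FPKM. Whether fragments of Sco2 were discarded or given to a neighbour was not tested. Gapdh, which most cells use, was also listed near 0, at 0.148 to 0.33 FPKM; a gene listed at 0 in this table may be a failed estimate.

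**Figure D2:**
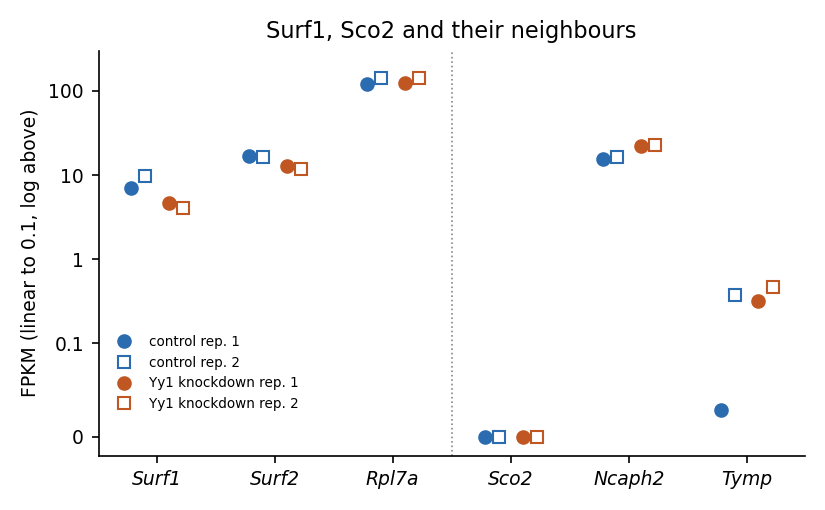
Levels of Surf1 and Sco2 beside the genes that overlap or adjoin them, in FPKM on an axis that is linear to 0.1 and logarithmic above; colours and symbols mark the 4 libraries. Surf2 is lower in both Yy1 knockdown libraries, like Surf1, while Sco2 is at 0 in all 4 beside Ncaph2 at 15.7 to 22.9 FPKM.

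Of the 10 members 9 had a mean of at least 1 FPKM and entered the fit across all genes, and Sco2 did not. Over the 12120 genes tested, 0 genes passed limma's adjusted threshold of 0.05, a background of 0%. Yy1 itself, 10.7-fold lower by the means, did not pass it. With 2 libraries per group, a lack of calls here and in the lists below therefore does not show a lack of change. In the same limma fit 1079 genes, 8.9%, had an unadjusted p under 0.05, 4.69% lower and 4.22% higher. With genes of a protein-coding RefSeq biotype alone, limma called 14 of 8216 (0.17%), and with limma-voom on recovered fragments 13 of 12120 (0.107%). A filter of 5 FPKM gave 0.0599% and robust variances 0.00825%. Calls of members are not given, since this contrast was known when they were chosen. In 6 of the 9, Uqcc1, Uqcc2, Surf1, Coa3, Cox10 and Cox15, each knockdown library was below each control, and in Bcs1l and Sco1 both were above. Of all genes tested 18.9% were separated in the lower and 21.8% in the higher direction. The median log2 fold change of the 9 was -0.25, against 0.02 over all genes tested. Since the genes were chosen with this contrast known, nothing is read from these counts.

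**Figure D3:**
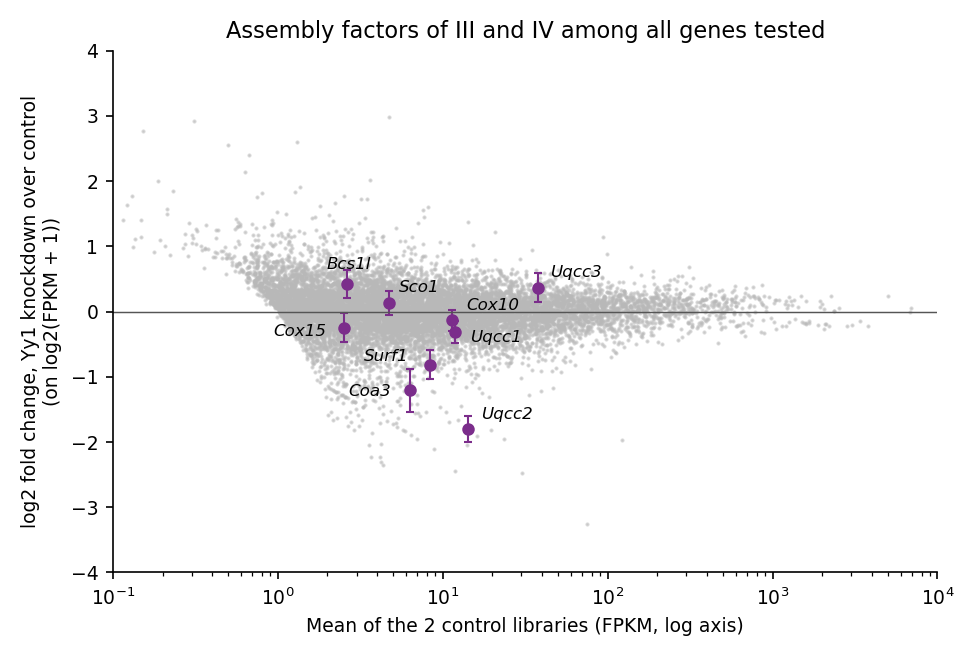
Log2 fold change of Yy1 knockdown over control against the mean of the 2 control libraries in FPKM (log axis); grey points are the genes tested with a control mean above 0.1 FPKM, purple points the 9 assembly factors with standard errors. Uqcc2 at -1.80 lies at the lower edge of the cloud at its level, Coa3 at -1.21 and Surf1 at -0.81 lie below most genes, and the other 6 lie within it.

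By the distance between log2(FPKM + 1) values over the 4 libraries, each taken relative to its control mean, 3 genes were nearest to Uqcc2 among 6661 genes with at least 5 FPKM in control. They were Thrap3 (distance 0.277), the predicted gene Gm5898 (0.38) and Vps41 (0.425). Thrap3, which encodes a splicing and transcription cofactor, was at 13.7 and 18.4 FPKM in control and 3.19 and 3.8 FPKM in Yy1 knockdown libraries. Vps41, which acts in traffic to lysosomes, was at 10.6 and 14.1 against 4.24 and 2.32 FPKM.

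The remaining assembly factors of complexes III and IV did not show differences as large as that of Uqcc2. Of 34 such genes listed, 31 were found in the table and 22 were tested. Limma called 0 of the 22 in either direction, none had an unadjusted p under 0.05, and limma-voom called 0 of them. Group means were lower for 14 and higher for 8, and the median log2 fold change was -0.13; both knockdown libraries were below both controls in 3 and above in 2. Cox19, which belongs to the copper pathway of complex IV, was at 2.03 and 2.94 FPKM in control and at 2.04 and 0.965 FPKM after knockdown (limma adjusted p = 0.678). Cox11, which carries copper to COX1, was at 2.76 and 2.08 against 1.51 and 1.75 FPKM (limma adjusted p = 0.684). Smim4, a small complex III factor, was at 2.75 and 1.91 against 1.08 and 1.87 FPKM (limma adjusted p = 0.689). None of the 18 with a promoter window held the YY1-type match.

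Among the subunits that these factors assemble, limma called 0 of 9 for complex III and 0 of 14 for the nuclear subunits of complex IV, and limma-voom also called 0. The complex III subunits had 7 lower and 2 higher group means and a median log2 fold change of -0.22. Both knockdown libraries were below both controls in 5 of the 9 and above in 1, against 18.9% and 21.8% of all genes tested. In limma 3 of the lower ones had an unadjusted p under 0.05, against 4.69% of all genes tested. The largest difference was that of Uqcrc1, a core subunit, at 21.9 and 21.9 FPKM in control and 14.6 and 11.5 FPKM in Yy1 knockdown libraries (limma adjusted p = 0.499). For complex IV 8 were lower and 6 higher, with a median of -0.07, and both knockdown libraries were below both controls in 3 and above in 1. In limma 1 lower gene had an unadjusted p under 0.05. That gene, Cox8a, was at 109 and 99.6 against 83.3 and 49.2 FPKM (limma adjusted p = 0.548). The mitochondrially encoded partners mt-Cytb, mt-Co1, mt-Co2 and mt-Co3 were all lower by group mean, with a median of -0.17, and none had an unadjusted p under 0.05. Their groups were apart in mt-Co2 alone, narrowly, with 1453 FPKM in the lower control and 1452 FPKM in the higher knockdown library. Assembly factors of complexes I, II and V had a median of 0.08 in 18 tested genes, 8 lower and 10 higher. Both knockdown libraries were below both controls in 3 of them and above in 5. In limma 2 of the lower and 1 of the higher had an unadjusted p under 0.05. Ndufaf6 stood apart there, at 3.41 and 2.76 FPKM in control and at 0.333 and 0.0829 FPKM after knockdown (limma adjusted p = 0.382), and it was called with protein-coding genes alone.

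Heme synthesis and copper supply, which feed Cox10, Cox15, Sco1 and Sco2, showed no call either, 0 of 7 in each list by limma and by limma-voom, with 0 and 1 genes at an unadjusted p under 0.05. Heme synthesis genes had a median log2 fold change of -0.17, 5 lower and 2 higher, and copper supply genes 0.21, 3 lower and 4 higher. The copper chaperone Atox1 was at 33.7 and 26.4 FPKM in control and 15.1 and 18.9 FPKM in Yy1 knockdown libraries (limma adjusted p = 0.5), its groups apart.

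**Figure D4:**
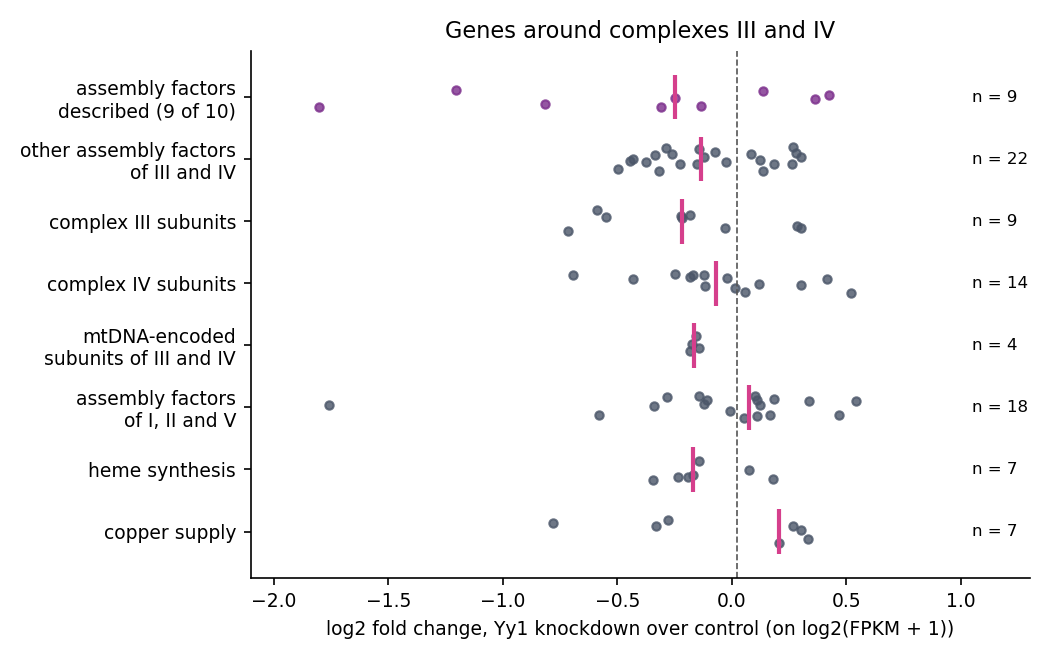
Log2 fold change of each tested gene in 8 lists, with the median of each list as a vertical bar and the median of all genes tested, 0.02, as a dashed line. The assembly factors described spread from -1.80 for Uqcc2 to 0.42 for Bcs1l, and the other assembly factors of III and IV lie between -0.50 and 0.30.

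The YY1-type match was set beside the differences of all genes, a description added after the values were seen. Of 6863 tested genes with a promoter window, 306 held AANATGGC after the start on the gene's strand, 490 held it elsewhere in the window and 6067 did not hold it. Each knockdown library was below each control in 40.5% of the first group, 32.9% of the second and 20.2% of the third. Both were above in 17%, 18.2% and 22.1%. The median log2 fold changes were -0.12, -0.06 and 0.01, and the median control levels 7.35, 7.74 and 5.8 FPKM. Uqcc2 at -1.80 and Coa3 at -1.21 are at the low end of the first group and Cox10 at -0.13 is near its median. Of 13 tested assembly factors of complexes I, II and V with a window, 3 hold the match after the start. In 0 of these 3 were both knockdown libraries below both controls. Ndufaf8 was at 23.3 and 21.5 FPKM in control and at 28.7 and 34.2 FPKM after knockdown. In Atpaf2 and Fmc1 the groups overlapped. Surf1, lower by 1.95-fold, has no AANATGGC match in its window. Only these exact letters were searched, so this does not show that YY1 does not bind there.

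**Figure D5:**
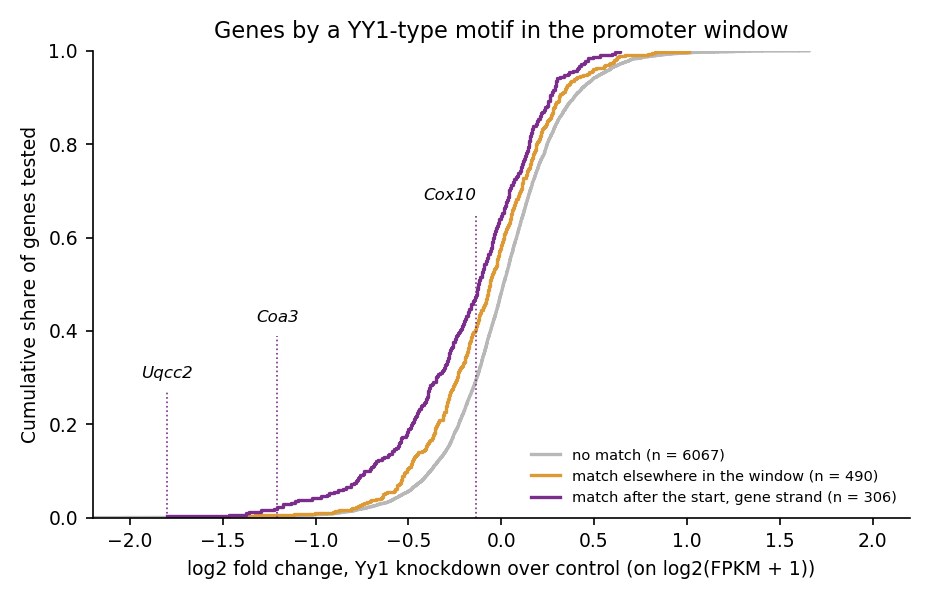
Cumulative share of tested genes by log2 fold change of Yy1 knockdown over control, for genes with the YY1-type match after the start on the gene's strand (306), elsewhere in the window (490) and nowhere in it (6067). The curve of the first group lies to the left of the others below 0, and dotted lines mark Uqcc2, Coa3 and Cox10.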

How the data were processed

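RNA of 4 libraries of 8-cell embryos was used, 2 per group, with groups and replicate numbers from the sample titles. The authors deposited the values as FPKM per gene and library. Libraries came from a SMART-Seq kit that keeps strand, per the labels' protocols. Tools listed in the submitters' processing notes, without roles, are HISAT2 2.2.1 and featureCounts, Bowtie2 2.4.3, Trim Galore 0.6.7, bedtools, SAMtools 1.4.1 and R 4.0.3; mm10 is the build listed. The strand setting, annotation release and treatment of reads with several positions were not stated there. Gene copies and overlapping genes are therefore uncertain.

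Genes averaging 1 FPKM or more were fitted on log2(FPKM + 1) with limma 3.58.1 in R 4.3.3, group alone, a mean-variance trend and Benjamini-Hochberg adjustment over all 12120 genes, threshold 0.05. The labels do not tie replicates to separate collections, so p-values reflect differences among these libraries that may be technical alone. Whole fragments were recovered from the steps between FPKM values and give the depth per gene. A step was found for 12120 of 12120 genes. The step is chosen to give whole counts, so that all were whole within 0.02 fragments is no check of the counts. The fit and the recovery were tested on simulated data. Replicates correlated at 0.969 and 0.966 and libraries of different groups at 0.959 to 0.97; replicate counts differed beyond sampling noise (chi-square per gene 71.6 in control and 50.7 in Yy1 knockdown). Positions, biotypes and promoters are from RefSeq, GRCm38.p6. Named were all members, up to 4 genes per list by smallest unadjusted p, members' neighbours within 1000 bases (noncoding ones in part) and the 3 genes nearest to Uqcc2. Members, lists and motifs were chosen with earlier results of these data known. Names of 4 listed genes were matched through RefSeq synonyms. Uqcc4, Uqcc6 and Coa1 were not matched. Uqcrfs1 and Gapdh were named after their values were seen, as was the split of all genes by motif.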

Additional observations from a re-analysis of the deposited data

How the results depend on the processing

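With 2 libraries per group, 1 library can move a value. Limma called 0 genes in every setting but 4: 4 with a filter of 5 FPKM, 1 with robust variances, 14 with protein-coding genes alone and 13 with limma-voom. The members' median log2 fold change was -0.34 and -0.29 with pseudocounts of 0.1 and 0.5, and -0.28 after quantile normalization. It was -0.27 to -0.23 leaving out 1 library at a time, and -0.31 with the 5 FPKM filter. That filter removed Bcs1l, Coa3, Sco1 and Cox15, and it also left fewer genes in the other medians given here. The median of the other assembly factors was -0.10 with the 5 FPKM filter and -0.1135 to -0.0757 leaving out 1 library. The difference in median between genes with the YY1-type match after the start and genes without it, -0.13, was -0.16 with a pseudocount of 0.1, -0.07 with the 5 FPKM filter and -0.17 to -0.12 leaving out 1 library. On the gene's strand alone the ETS motif was in 3 of the 10 windows. No member changed direction under any alternative run. The cause of these shifts was not tested.

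Replicate numbers are shared between the groups, but deviations of same-numbered libraries correlated at 0.0994, so the numbers were not taken as pairs. With the replicate block limma called 0 genes, and the members' median was -0.25.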
